A study of Mus musculus with 14 samples.

Results

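The cytosolic ribosomal protein genes are described here in cells sorted from synovium, the lining of the joint, of mouse knees. They were chosen by symbol alone, as the protein-coding genes whose names follow the standard pattern for proteins of the large subunit (Rpl and Rplp) or the small subunit (Rps and Rpsa), without the S6 kinases and without pseudogenes. This gave 83 of the 47729 genes in the count table, 51 of the large and 32 of the small subunit. A count was found for 82 of them, and 81 passed the filter on low counts that left 15015 genes to test. Rpl10l, with no count in any library, and Rpl3l, with 39 counts in a single library, were not tested.

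RNA was sequenced in 14 libraries of C57BL6 mice aged 16 weeks. CD105_AIA denotes 5 libraries of CD200-CD105+ cells of mice with antigen-induced arthritis, CD200_AIA denotes 5 libraries of CD200+CD105- cells of such mice, and CD200_NI denotes 4 libraries of CD200+CD105- cells from mice without immunization (non-immunized). Arthritis was brought about by immunization with methylated bovine serum albumin in complete Freund's adjuvant, followed by an injection of the same protein into the joint, while the non-immunized mice received phosphate buffered saline each time. Cells were isolated 10 days after that injection and were sorted as negative for TER119, CD31 and CD45 and positive for CD51. Each library was made from 200 to 500 cells with a full-length cDNA kit (SMART-Seq v4), with ERCC spike-in RNA added to the lysate. The labels do not say whether the libraries of a group came from separate animals, or whether CD105_AIA and CD200_AIA share animals. The p-values thus measure the spread between these libraries, treated as unpaired. CD200-CD105+ cells of mice without arthritis were not analysed here, so a difference between CD105_AIA and CD200_NI holds both the phenotype and arthritis.

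The ribosome translates mRNA into protein. Its small subunit reads the mRNA, its large subunit joins amino acids, and each protein of either subunit is normally needed in a fixed number of copies. The mRNAs of ribosomal proteins usually begin with an unbroken stretch of C and T (the terminal oligopyrimidine, or TOP, element), through which the kinase mTOR and the RNA-binding protein LARP1 set their translation together. Cells that grow or divide make many ribosomes, and some ribosomal proteins, such as RPL5 and RPL11, also bind MDM2 and thereby raise p53 when ribosome assembly is disturbed.

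The start sites of some members are shown because the TOP element lies there. RefSeq's table for GRCm38.p6 held 75 windows for 63 of the 83 members, each with 250 bases before and 50 bases after an annotated start. A run of at least 5 C or T from the annotated start onward was present in 16 of the 75 windows (21.3%), against 4.44% of all 32851 windows in the table. The letters CTTTCC occurred on the gene's strand in the last 100 bases of 29.3% of member windows and 4.69% of all windows, and CTTTTC, which shares bases with it, in 13.3% and 3.69%. Counted on both strands, CTTTCC occurred in 32.0% of member windows and 8.97% of all windows, and CTTTTC in 16.0% and 6.89%. The lines below give the 20 bases on either side of the start, 5′ to 3′ on the gene's strand, with the longest run of C and T in capitals. The first 4 are the members with the longest run from the annotated start, and the next 4 are members whose level was higher in CD105_AIA than in CD200_NI, with their results given further on.
Rpl27a, chr7:109519175-109519214, plus strand: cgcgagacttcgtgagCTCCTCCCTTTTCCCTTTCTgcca
Rpl15, chr14:18270967-18271006, minus strand: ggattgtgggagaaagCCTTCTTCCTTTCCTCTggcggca
Rpl35, chr2:39005112-39005151, minus strand: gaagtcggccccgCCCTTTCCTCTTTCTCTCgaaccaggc
Rps10, chr17:27635225-27635264, minus strand: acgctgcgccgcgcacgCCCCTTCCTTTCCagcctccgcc
Rpl4, chr9:64173367-64173406, plus strand: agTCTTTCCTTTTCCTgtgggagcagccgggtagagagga
Rps2, chr17:24720043-24720082, plus strand: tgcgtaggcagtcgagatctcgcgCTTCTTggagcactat
Rplp0, chr5:115559447-115559486, plus strand: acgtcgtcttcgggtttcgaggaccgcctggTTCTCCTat
Rpsa, chr9:120127746-120127785, plus strand: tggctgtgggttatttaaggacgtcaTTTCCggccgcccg
In Rpl27a the run continued for 16 bases from the annotated start, in Rpl15 for 13, in Rpl35 for 11 and in Rps10 for 10. In Rpl4 the longest run ended before the annotated start, and in Rps2, Rplp0 and Rpsa it began after it. These windows go by the annotated base alone, and the base where each mRNA began in these cells was not measured.

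Total counts per library, spike-ins included, ranged from 12177437 to 40331071, and counts on genes from 2919666 to 18553803. Spike-ins took over 80% of the counts in libraries 2 (CD200_NI), 5 and 6 (both CD200_AIA). Cd200 averaged 2.29 ± 5.12 CPM (counts per 1000000 gene counts, scaled between libraries by TMM) in CD105_AIA, 418 ± 98.4 in CD200_AIA and 590 ± 177 in CD200_NI (SD, n = 5, 5 and 4), so its level went with the sort. Eng, which encodes CD105, averaged 6.60 ± 4.85 CPM in CD105_AIA, 0.502 ± 0.582 in CD200_AIA and 5.27 ± 5.69 in CD200_NI, so its RNA did not set CD105_AIA apart from CD200_NI. Erythroid markers (haemoglobin genes, Alas2, Klf1 and others, 11 of 12 in the table) differed widely between the groups although TER119+ cells were gated out. Their summed level was 28156 to 248023 CPM in CD105_AIA, where each of the 11 had a count, 4.23 to 10360 CPM in CD200_AIA, where 5 were at 0, Klf1, Gata1, Slc4a1 and Epor among them, and 1169 to 10150 CPM in CD200_NI, where Gata1 and Rhag were at 0. Osteoblast markers summed to 85.0 to 1388 CPM in CD105_AIA, with Runx2 at 0, to 425 to 13971 CPM in CD200_AIA and to 18707 to 33426 CPM in CD200_NI. CD45+ cells were gated out too, yet some of their markers were high in single libraries. In CD105_AIA, CD200_AIA and CD200_NI, in this order, B and plasma cell markers summed to 0 to 86.3, 0 to 29.2 and 31.5 to 6755 CPM. Neutrophil markers summed to 0 to 1034, 0 to 159 and 4.84 to 6979 CPM, and macrophage markers to 0 to 5769, 0 to 62.4 and 0 to 284 CPM. The part of any of these sets of markers in the ribosomal protein results was not tested.

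Ribosomal protein genes took from 3.79 to 11.3% of gene counts, and the share varied widely within each group. In CD105_AIA libraries 10 to 14 the share of gene counts was 7.51, 9.36, 5.76, 9.62 and 11.3%. In CD200_AIA libraries 5 to 9 it was 4.53, 9.58, 8.25, 7.21 and 7.29%, and in CD200_NI libraries 1 to 4 it was 3.82, 3.79, 6.25 and 7.04%. The means were 8.70 ± 2.12% in CD105_AIA, 7.37 ± 1.85% in CD200_AIA and 5.22 ± 1.67% in CD200_NI (SD, n = 5, 5 and 4), and the ranges of all 3 groups overlapped. The widest 95% Wilson interval of a single library, that of library 6, ran from 9.547 to 9.615%, which covers counting error only, so the spread between libraries was far beyond it. Library 12, lowest of CD105_AIA in this share, also had the lowest erythroid sum of its group (28156 CPM), whereas library 10 had the highest (248023 CPM) with a share of 7.51%. In bulk samples, fewer cells of a type and less RNA per cell cannot be told apart.

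Set against the spike-ins, the order of the group means was the same and the spread was wider. CD105_AIA had 72.1, 296, 46.0, 133 and 443 ribosomal protein counts per 1000 spike-in counts. CD200_AIA had 6.51, 8.36, 107, 66.3 and 94.7, and CD200_NI had 42.1, 6.50, 61.0 and 56.4. The lowest values belonged to the 3 libraries with over 80% spike-ins, and CD105_AIA libraries 10 and 12 lay within the range of the other groups. Named ribosomal pseudogenes, 274 in all, held 0.581 ± 0.170% of gene counts in CD105_AIA, 0.513 ± 0.133% in CD200_AIA and 0.371 ± 0.152% in CD200_NI. Reads of a member and of its near-identical pseudogenes may have been split between them, so levels of single members are uncertain to that extent.

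**Figure D1:**
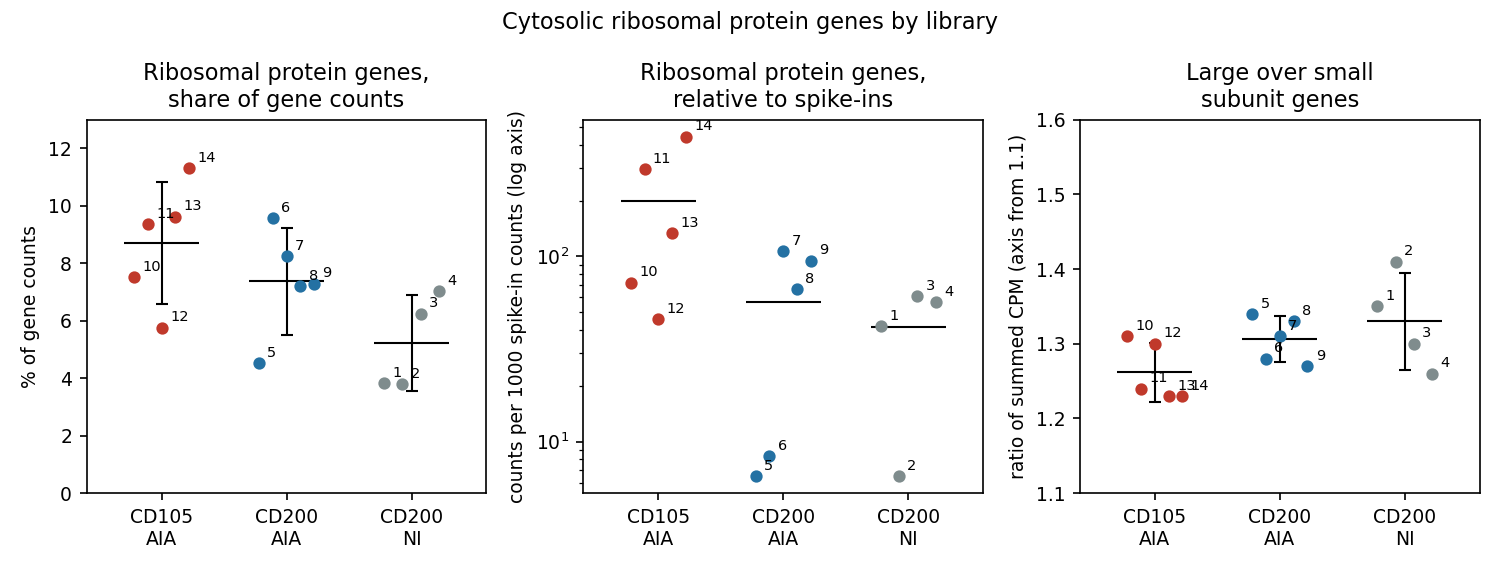
Ribosomal protein genes in each library (points, with library numbers) by group: share of gene counts in %, counts per 1000 spike-in counts on a log axis, and the ratio of large to small subunit genes. Black lines are group means and bars are SD, which are not drawn on the log axis; shares run from 3.79 to 11.3% and ratios from 1.23 to 1.41, with overlap between the groups.

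The balance of the subunits varied little beside the total. The summed level of large over small subunit genes was 1.31, 1.24, 1.30, 1.23 and 1.23 in CD105_AIA, against 1.34, 1.28, 1.31, 1.33 and 1.27 in CD200_AIA and 1.35, 1.41, 1.30 and 1.26 in CD200_NI. The means were 1.26 ± 0.0383 in CD105_AIA, 1.31 ± 0.0314 in CD200_AIA and 1.33 ± 0.0660 in CD200_NI, and the ranges overlapped. With the named pseudogenes added, the means were 1.25, 1.31 and 1.33 in the same groups. Per kilobase of coding sequence, the median small subunit gene lay above the median large subunit gene in each group mean, at 2410 and 1769 CPM per kb in CD105_AIA, 1728 and 1303 in CD200_AIA, and 1395 and 1011 in CD200_NI. This scale leaves untranslated parts of the mRNA out of the length.

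Members differed from each other far more than they differed between groups. On the scale of CPM per kb of coding sequence, the highest member over all libraries was Rpl41 (8004), which encodes a very short peptide, and Rps29 (5578) was among the highest. The lowest were Rpl3l (0.132), Rpl39l (114), Rpl7l1 (175) and Rpl22l1 (400), which are divergent copies of other members. Counts of whole genes were divided here by coding length alone, 138 bases in Rpl41 and 168 in Rps29, so the scale favours short coding sequences. In plain CPM, Rpl13 (2361), Rplp0 (2316) and Rpsa (2240) were among the 4 highest, and Rpl41 stood at 1105. The order of the 83 members was alike in all libraries, with a median Spearman rho of 0.932 between CD105_AIA libraries, 0.888 between CD200_AIA libraries and 0.908 between CD200_NI libraries. Across groups it was 0.880 for CD105_AIA with CD200_AIA, 0.892 for CD105_AIA with CD200_NI and 0.911 for CD200_AIA with CD200_NI. These values describe the 83 genes, which share length and base composition in every library, and carry no test. For the 77 members that are not divergent copies, the median coefficient of variation of the level between libraries was 31.6% in CD105_AIA, 33.8% in CD200_AIA and 37.8% in CD200_NI.

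The comparison of CD200_AIA with CD200_NI asked how the members differed with arthritis in CD200+CD105- cells. No member passed the test: 0 of 81 were called higher and 0 lower by edgeR's quasi-likelihood test at a Benjamini-Hochberg adjusted p under 0.05, where the share of all genes called was 0%. At an unadjusted p under 0.05, 4 members were higher (Rpl35, Rps25, Rps19 and Rpl6) and 0 were lower, where 3.22% of all genes were higher and 2.88% lower. DESeq2 called 0 members in either direction, where it called 0.698% of all genes higher and 1.11% lower. Limma voom also called 0 members, where it called 0.0200% and 0.00666%. Of the 81 members, 77 (95.1%) had a log2 change above 0, against 44.9% of all genes. This count was 67 with RLE factors, 79 with library sizes from the spike-ins and 62 of 82 in DESeq2. It was 66 without library 2 and 80 without library 3, 4 or 5. The median log2 change was 0.36 for large and 0.31 for small subunit genes, against -0.10 for all genes. RLE factors moved the median of all genes to -0.27, and the median of all members lay 0.45 above it, compared with 0.43 in TMM scaling. A change of scaling shifts all genes of a comparison nearly alike, so this gap was bound to stay close. In DESeq2 the median of all members was 0.15, a gap of 0.24. Leaving out single libraries gave gaps from 0.27 (library 1) to 0.64 (library 5).

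Rps19, a small subunit protein whose gene is the one most often mutated in human Diamond-Blackfan anaemia, had 1949, 4937, 2756, 2038 and 2274 CPM in CD200_AIA, against 1097, 1356, 1832 and 2041 CPM in CD200_NI. Library 6 stood far above the others, and the groups overlapped. The log2 change was 0.82 (SE 0.34, edgeR quasi-likelihood adjusted p = 0.686). Rpl35, a large subunit protein at the exit of the peptide tunnel whose start site was shown above, averaged 1707 ± 761 CPM in CD200_AIA and 882 ± 332 CPM in CD200_NI (SD, n = 5 and 4), a log2 change of 0.95 (SE 0.40, adjusted p = 0.691 in edgeR). Rps25, a protein of the small subunit head, averaged 1742 ± 781 CPM in CD200_AIA and 946 ± 293 CPM in CD200_NI (log2 change 0.88, SE 0.38, adjusted p = 0.713 in edgeR). For these genes the spread between libraries was about as large as the difference. Rpl6, of the large subunit, had a log2 change of 0.48 (SE 0.22), which did not pass the test either. The lowest changes were those of Rpl7l1 (-0.42), Rps4x (-0.05), Rpl13a (-0.04) and Rpl27a (-0.01), each smaller than its SE.

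Groups that did not overlap were as rare among the members as among all genes. Only Rps27l had every CD200_AIA library above every CD200_NI library, or 1 of 81, where 1.11% of all genes did so. In the lower direction there were 0 members, where 1.18% of all genes did so. Rps27l, a copy of Rps27 that p53 induces, had 542, 810, 686, 630 and 759 CPM in CD200_AIA, against 509, 155, 501 and 492 CPM in CD200_NI. The gap was narrow apart from library 2, and the log2 change of 0.73 (SE 0.37) had an edgeR adjusted p of 0.913.

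**Figure D2:**
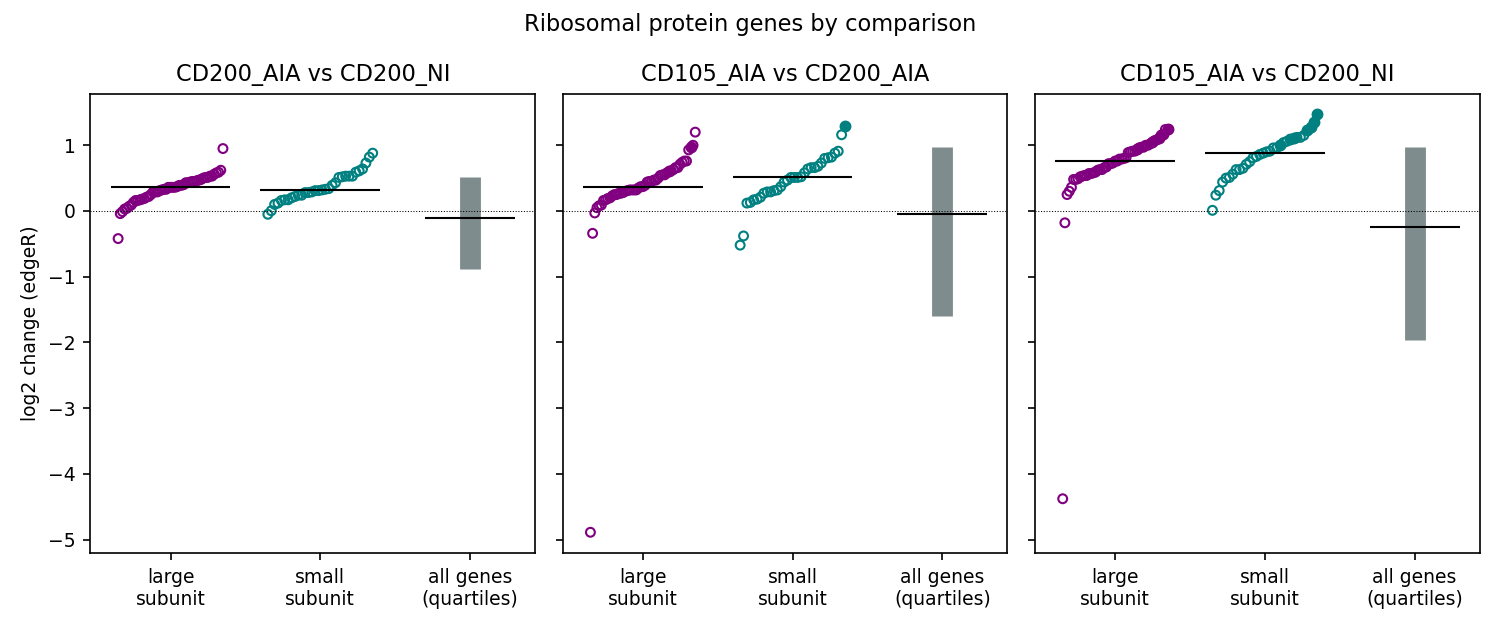
Log2 change of each ribosomal protein gene by subunit in the 3 comparisons, sorted within a column; filled points passed the edgeR test, black lines are medians and grey bars span the quartiles of all 15015 genes tested. Most members lie above 0, with 0, 3 and 13 filled points from left to right; the single point near -5 or -4 is Rpl39l.

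The second comparison set CD200-CD105+ against CD200+CD105- cells within arthritis. In CD105_AIA against CD200_AIA, 3 of 81 members were called higher (3.70%) and 0 lower by the same edgeR test, where 4.79% of all genes were called higher and 6.48% lower. The 3 were Rps2, Rplp0 and Rpl4. The members' share of higher calls was thus near that of all genes. At an unadjusted p under 0.05, 17 members were higher and 1 lower, where 11.3% and 15.5% of all genes were. A log2 change above 0 was found for 76 members (93.8%), against 48.8% of all genes. The count was 73 with RLE factors, 80 with spike-in library sizes, 73 of 82 in DESeq2 and 72 without library 5. The median log2 change was 0.37 for large and 0.51 for small subunit genes, against -0.05 for all genes. With library sizes from the spike-ins the median of all genes moved to 1.22. No member passed the test there, where 545 of 15015 genes were called in either direction. The median of all members then lay 0.54 above that of all genes, compared with 0.49 in TMM scaling, a gap that scaling can hardly move. It was 0.38 in DESeq2 and ran from 0.37 without library 5 to 0.71 without library 12.

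Rps2, a small subunit protein near the channel through which mRNA enters (chr17:24718116-24721929, GRCm38), showed the largest change among the called members. It had 1930, 1958, 1771, 2132 and 2696 CPM in CD105_AIA, against 271, 865, 1113, 1250 and 761 CPM in CD200_AIA. Every CD105_AIA library lay above every CD200_AIA library, with a log2 change of 1.30 (SE 0.33, 2.46-fold, edgeR quasi-likelihood adjusted p = 0.0218). Rps2 shares bases with the noncoding gene Snhg9 and holds 2 small RNA genes, and no source used here says whether reads were counted by strand.

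Rplp0, the base of the stalk that recruits elongation factors to the large subunit (chr5:115559467-115563727), had 3340, 3343, 2621, 4151 and 3952 CPM in CD105_AIA, against 1000, 1998, 1676, 2387 and 1776 CPM in CD200_AIA. The groups did not overlap, and the log2 change was 0.98 (SE 0.26, 1.97-fold, edgeR adjusted p = 0.0294). Its stalk partners Rplp1 and Rplp2 had log2 changes of 0.44 (SE 0.42) and 0.71 (SE 0.39), with overlapping groups and no call. Rpl4, which lines the tunnel for the growing peptide (chr9:64173375-64178666), had 2600, 1949, 1840, 2155 and 2242 CPM in CD105_AIA, against 1234, 1739, 1458, 1369 and 1252 CPM in CD200_AIA. These groups did not overlap either, and the log2 change was the smallest of the 3 at 0.61 (SE 0.18, 1.53-fold, edgeR adjusted p = 0.0450).

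Rpsa, the laminin receptor precursor and a small subunit protein near the mRNA exit, was the remaining member without overlap, so 4 of 81 (4.94%) were higher in this sense where 10.4% of all genes were, and 0 were lower where 6.33% of all genes were. It had 2249, 3468, 2422, 4429 and 5104 CPM in CD105_AIA, against 784, 882, 2184, 2214 and 1819 CPM in CD200_AIA, a log2 change of 1.16 (SE 0.37) that missed the threshold in edgeR (adjusted p = 0.0555). Rpl29, of the large subunit, averaged 593 ± 141 CPM in CD105_AIA and 296 ± 108 CPM in CD200_AIA (SD, n = 5 each), a log2 change of 1.00 (SE 0.32) that also missed it (edgeR adjusted p = 0.0578). Library 12 of CD105_AIA, at 395 CPM, lay just under library 7 of CD200_AIA, at 399 CPM.

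A few members had a log2 change below 0 in CD105_AIA against CD200_AIA, and none passed the test. Rps27 averaged 649 ± 195 CPM in CD105_AIA and 931 ± 365 CPM in CD200_AIA (SD, n = 5 each), a log2 change of -0.52 (SE 0.31). Rps19 averaged 2140 ± 647 CPM in CD105_AIA and 2791 ± 1240 CPM in CD200_AIA (log2 change -0.38, SE 0.31), and Rpl22l1 129 ± 43.5 CPM in CD105_AIA and 164 ± 16.6 CPM in CD200_AIA (log2 change -0.34, SE 0.30). With spike-in library sizes these 3 changes were 1.03, 1.25 and 1.13, so their sign depended on the scaling.

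Each of the 3 calls was lost in some of the fits without 1 library, although the groups of these genes did not overlap. Without library 9 or library 14 no member passed the test, without library 7, 10 or 13 there was 1 higher call, without library 12 there were 5 and without library 2 there were 7. Calls over all genes moved too, from 1692 in either direction in the main fit. They were 1794, 1289, 1262, 1200, 1316, 1137 and 1090 without library 2, 7, 9, 10, 12, 13 and 14. Rps2 lost its call without library 9 or 14, Rplp0 without 7, 9, 10, 13 or 14, and Rpl4 without 5, 7, 8, 9, 10, 11, 13 or 14. Over the 14 fits without 1 library, the edgeR adjusted p ranged from 0.0101 to 0.0559 for Rps2, from 0.0157 to 0.0727 for Rplp0 and from 0.0207 to 0.111 for Rpl4. Over all 25 alternatives, which include DESeq2 and limma voom, the adjusted p ranged from 0.000497 to 0.136 for Rps2, from 0.000785 to 0.151 for Rplp0 and from 0.000254 to 0.188 for Rpl4, with the lowest value of each in limma voom and the log2 change above 0 in each alternative. DESeq2 called 8 members higher and 1 lower, where it called 8.08% and 13.2% of all genes, and limma voom called 21 and 1, where it called 14.1% and 16.7%.

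**Figure D3:**
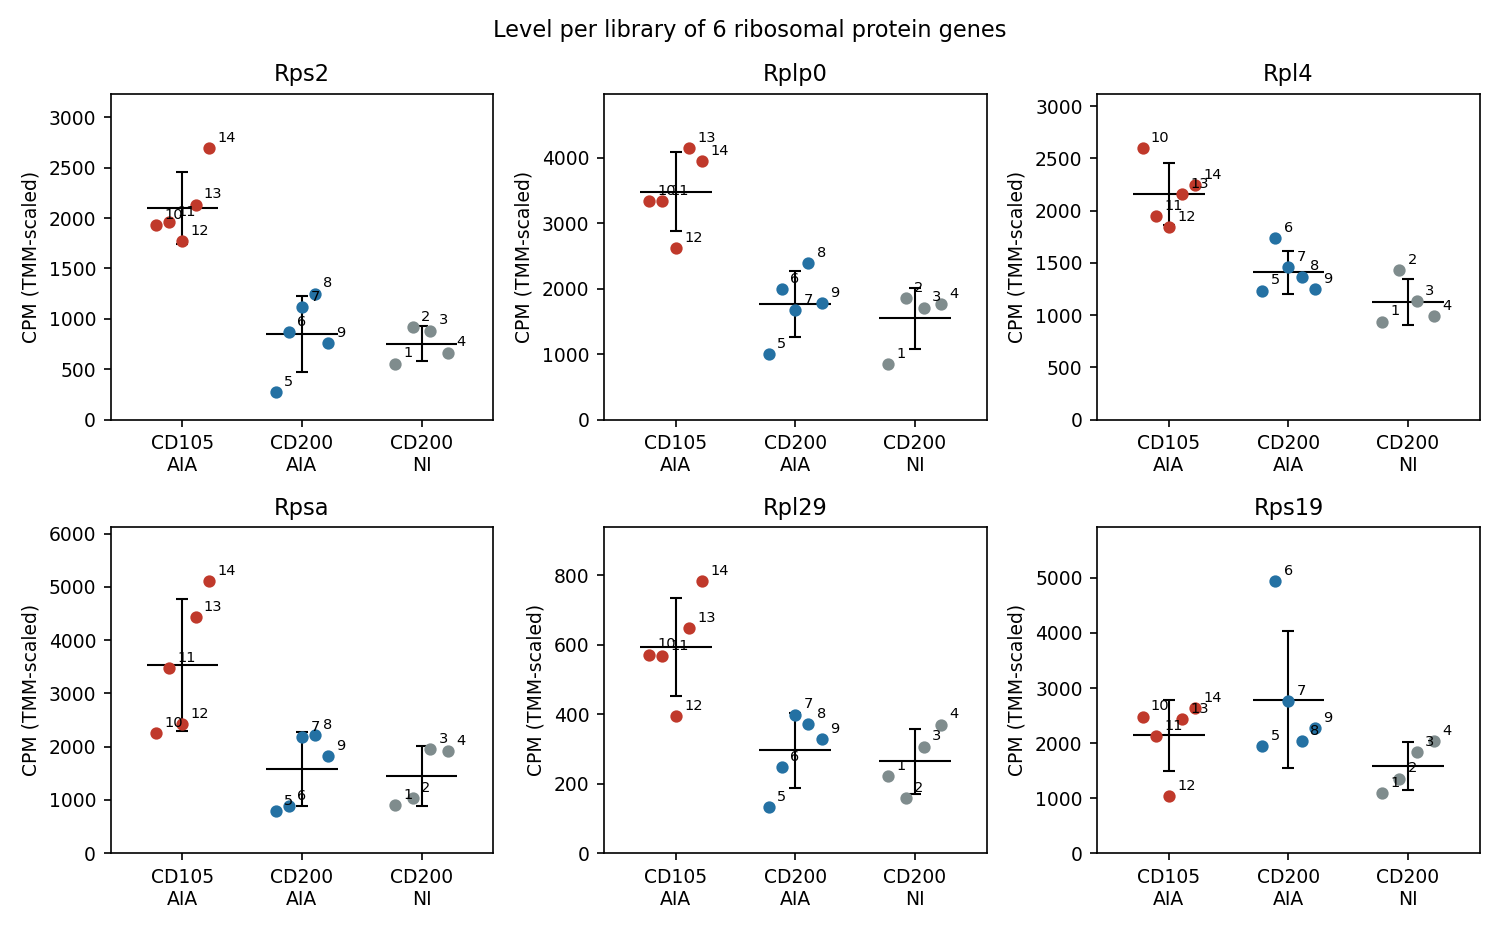
Level in CPM of 6 ribosomal protein genes in each library (points, with library numbers) by group, with group means and SD. CD105_AIA lies above both other groups without overlap for Rps2, Rplp0, Rpl4 and Rpsa; Rpl29 overlaps at library 12, and Rps19 overlaps throughout.

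CD105_AIA against CD200_NI shares libraries with each of the other comparisons and gave more calls. Here 13 of 81 members were called higher (16.0%) and 0 lower by edgeR, where 5.57% of all genes were called higher and 7.63% lower. At an unadjusted p under 0.05, 40 members were higher and 1 lower, where 11.8% and 17.3% of all genes were. Those called comprised 6 large subunit genes (Rpl41, Rplp0, Rpl29, Rpl6, Rpl3 and Rpl4) and 7 small subunit genes (among them Rps2, Rps20, Rpsa, Rps27l, Rps16 and Rps3). A log2 change above 0 was found for 79 members (97.5%), against 45.5% of all genes, and for 76 with RLE factors and 80 with spike-in library sizes. The median log2 change was 0.76 for large and 0.89 for small subunit genes, against -0.24 for all genes. With spike-in library sizes no member passed the test, where 278 of 15015 genes were called in either direction. The median of all members lay 1.04 above that of all genes in TMM scaling, 1.04 with RLE factors and 1.03 with spike-in library sizes. Here too, scaling could hardly move this gap. It was 0.73 in DESeq2 and ran from 0.85 without library 1 to 1.26 without library 12.

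Among small subunit genes, Rps2 had 1771 to 2696 CPM in CD105_AIA, against 555, 918, 883 and 664 CPM in CD200_NI, a log2 change of 1.47 (SE 0.36, 2.78-fold, edgeR adjusted p = 0.0158). Rps20, a protein of the small subunit head, had 555, 935, 355, 418 and 1126 CPM in CD105_AIA, against 215, 188, 362 and 293 CPM in CD200_NI (log2 change 1.36, SE 0.38, edgeR adjusted p = 0.0300). Library 12 of CD105_AIA lay below library 3 of CD200_NI, so the groups overlapped. Rpsa had 904, 1033, 1953 and 1917 CPM in CD200_NI, below each of the 5 CD105_AIA values given above (log2 change 1.28, SE 0.40, edgeR adjusted p = 0.0472). Rps16, whose tail reaches the peptidyl-tRNA site, averaged 1256 ± 374 CPM in CD105_AIA and 580 ± 243 CPM in CD200_NI (SD, n = 5 and 4), with a log2 change of 1.11 (edgeR adjusted p = 0.0402). Rps3, at the mRNA entry channel, had a log2 change of 1.01 (SE 0.27) with no overlap.

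Among large subunit genes, Rpl41 had 1518, 1781, 908, 1729 and 2368 CPM in CD105_AIA, against 601, 370, 898 and 926 CPM in CD200_NI. Library 12 lay just below library 4, so the groups overlapped, and the log2 change was 1.25 (SE 0.36, edgeR adjusted p = 0.0350). Rplp0 had 853, 1854, 1713 and 1768 CPM in CD200_NI, all below its 2621 to 4151 CPM in CD105_AIA (log2 change 1.17, SE 0.28, edgeR adjusted p = 0.0165). Rpl4 had 938, 1432, 1135 and 991 CPM in CD200_NI, all below its 1840 to 2600 CPM in CD105_AIA (log2 change 0.94, SE 0.20, edgeR adjusted p = 0.00800). Rpl29 had a log2 change of 1.16 (SE 0.35), Rpl6 of 1.11 (SE 0.23) and Rpl3, which reaches the peptidyl transferase centre, of 1.05 (SE 0.27), and none of these overlapped between the groups. In all, 8 of 81 members (9.88%) were higher without overlap where 12.5% of all genes were, and 0 were lower where 11.5% of all genes were.

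The count of 13 moved with single libraries. It was 5 without library 1, 6 without library 2, 26 without library 5, 7 without library 10 or 11, 28 without library 12, 6 without library 13 and 4 without library 14. Calls over all genes moved too, from 1982 in either direction in the main fit. They were 1432, 1722, 2394, 1400, 1757, 1762, 1352 and 1308 without library 1, 2, 5, 10, 11, 12, 13 and 14. Rps2, Rplp0, Rpl4 and Rpl6 kept their call in each of the 14 fits without 1 library, and Rpl3 lost it only without library 14. Rps3 lost its call without library 1, 10, 13 or 14, Rps20 without 1, 2, 4, 11 or 14, and Rpl41 without 1, 2, 10, 11, 13 or 14. Rpl29 lost it without 1, 2, 3, 9, 10, 11, 13 or 14, Rps16 without these or 8, Rpsa without 1, 2, 3, 4, 8, 9, 11, 13 or 14, and Rps27l without any library but 5, 6 or 12. Each of these members had a log2 change above 0 in all 14 fits. Without the haemoglobin and other erythroid genes in the scaling, the counts stayed at 13 here and 3 in CD105_AIA against CD200_AIA. That setting hardly altered the fit, with the same 1982 and 1692 of all genes called as in the main fit. It leaves the erythroid RNA in the libraries, and the part of that RNA in the calls was not tested. DESeq2 called 13 members higher, where it called 8.02% of all genes, and none lower, where it called 16.1%, and limma voom called 52 higher and 1 lower, where it called 14.6% and 18.6%.

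Beyond the level, each member's share of the ribosomal protein counts was compared, which changes only with the balance among members. Of all 83 members, 4 had a higher and 3 a lower share without overlap in CD105_AIA against CD200_AIA, 3 a higher and 7 a lower share in CD105_AIA against CD200_NI, and 1 a higher and 0 a lower share in CD200_AIA against CD200_NI. No such count was made for other genes, so whether these numbers are more than usual cannot be told. Rps2 made up 2.36 ± 0.589% of all ribosomal protein counts in CD105_AIA, 1.19 ± 0.423% in CD200_AIA and 1.54 ± 0.637% in CD200_NI, and its lowest share in CD105_AIA (1.94%) lay above its highest in CD200_AIA (1.82%) but below its highest in CD200_NI (2.43%). Rps27, which binds zinc in the small subunit, made up 0.692 ± 0.0401% in CD105_AIA, 1.35 ± 0.307% in CD200_AIA and 1.22 ± 0.0254% in CD200_NI. Its highest share in CD105_AIA (0.761%) lay below the lowest of CD200_AIA (0.891%) and of CD200_NI (1.20%). Rps19 likewise made up 1.97 to 2.49% in CD105_AIA, below its 2.97 to 5.82% in CD200_AIA and 2.73 to 3.58% in CD200_NI. A share of this kind does not depend on the scaling between libraries, and these shares were not tested.

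The divergent copies are encoded by separate genes, and several of them are tissue-restricted in mice. Rpl10l, known from testis, had 0 counts in all 14 libraries, which at a limit of 3 counts per group allows up to 0.0460 CPM over CD105_AIA, 0.0602 CPM over CD200_AIA and 0.0526 CPM over CD200_NI. Rpl3l, known from heart and skeletal muscle, had counts only in library 1 of CD200_NI. Skeletal muscle markers summed to 0.444 to 11.2 CPM in CD105_AIA, 492 to 1069 CPM in CD200_AIA and 238 to 1151 CPM in CD200_NI. Rpl39l, also known from testis, had 0, 0, 0, 88 and 0 counts in CD105_AIA, 0, 319, 303, 176 and 348 counts in CD200_AIA and 322, 60, 842 and 58 counts in CD200_NI. A single CD105_AIA library thus held any. CD105_AIA overlapped with CD200_AIA because library 5 was at 0 too. It overlapped with CD200_NI because library 13 (5.00 CPM) lay above library 4 of CD200_NI (3.36 CPM). The fitted log2 change was -4.89 (SE 2.03) against CD200_AIA and -4.38 (SE 2.02) against CD200_NI, with edgeR adjusted p of 0.136 and 0.167. On the side of CD105_AIA these values rest on the 88 counts of library 13 alone. Under the alternatives they ran from -11.50 to -3.58 and from -10.99 to -3.41. Over 25 alternatives, DESeq2 and limma voom included, the adjusted p ranged from 0.00207 to 0.333 and from 0.00157 to 0.323, with calls in 3 and 2 of them.

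The ratios of the copies Rps27l and Rpl22l1 to their relatives are given by library and were not tested. The ratio of Rps27l to Rps27 counts was 2.26, 1.50, 1.21, 1.41 and 1.11 in CD105_AIA, against 0.938, 0.551, 0.652, 1.03 and 0.803 in CD200_AIA and 1.01, 0.338, 0.682 and 0.560 in CD200_NI. Every CD105_AIA library thus held more Rps27l than Rps27 counts and lay above every library of the other groups. In level, Rps27l averaged 973 ± 387 CPM in CD105_AIA and 414 ± 173 CPM in CD200_NI (log2 change 1.23, SE 0.38, edgeR adjusted p = 0.0457), while Rps27 averaged 649 ± 195 CPM in CD105_AIA and 644 ± 198 CPM in CD200_NI (log2 change 0.01, SE 0.33). This call of Rps27l was kept in 8 of 25 alternatives. Against CD200_AIA, Rps27l had a log2 change of 0.51 (SE 0.35, edgeR adjusted p = 0.396). The ratio of Rpl22l1 to Rpl22, a pair in which Rpl22 represses Rpl22l1 in mice, was 0.857, 0.402, 0.588, 0.437 and 0.479 in CD105_AIA. It was 1.43, 1.03, 0.611, 1.12 and 0.784 in CD200_AIA and 1.85, 0.616, 1.15 and 0.725 in CD200_NI. The CD105_AIA values were lower apart from library 10, which lay within the range of both other groups.

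Rpl7l1 and Rpl7 showed no split like that of Rps27l and Rps27. Their ratio averaged 0.225 ± 0.117 in CD105_AIA, 0.108 ± 0.0870 in CD200_AIA and 0.179 ± 0.119 in CD200_NI, with overlapping ranges. Rpl7l1 itself averaged 190 ± 60.7 CPM in CD105_AIA and 82.3 ± 62.4 CPM in CD200_AIA (SD, n = 5 each), the highest log2 change among large subunit genes at 1.20 (SE 0.53) but with an edgeR adjusted p of 0.155. Rps4l is annotated as a processed pseudogene and is not a member. With it, 5 of the 7 divergent copies were tested, and 0, 0 and 1 (Rps27l, higher) were called in CD200_AIA against CD200_NI, CD105_AIA against CD200_AIA and CD105_AIA against CD200_NI. Of all genes, 0%, 4.79% and 5.57% were called higher and 0%, 6.48% and 7.63% lower. The median log2 changes of the 5 were 0.19, -0.25 and -0.07, beside -0.10, -0.05 and -0.24 for all genes. Each median of the 5 was the value of Rps4l itself, so these medians do not describe members.

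**Figure D4:**
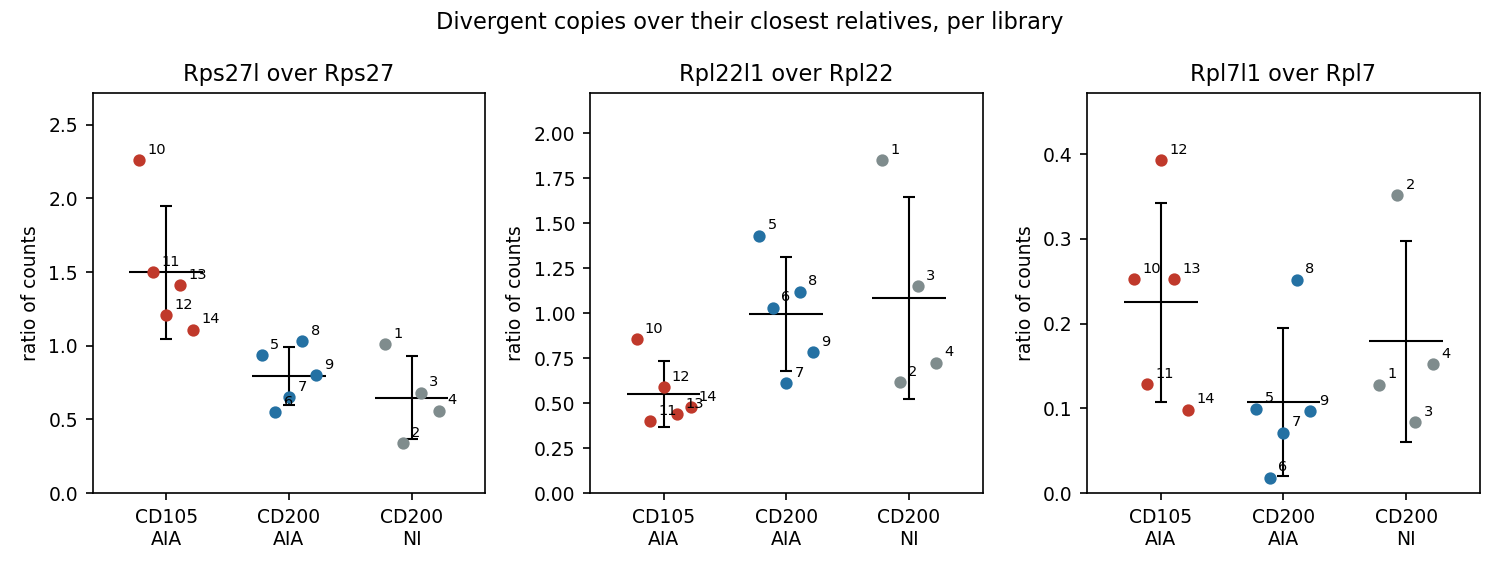
Ratio of counts of 3 divergent copies to their closest relatives in each library (points, with library numbers), with group means and SD. The 5 CD105_AIA values of Rps27l over Rps27, from 1.11 to 2.26, lie above all others, whereas the other ratios overlap.

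The members tied to p53 and to Diamond-Blackfan anaemia, a failure of red cell production in humans, were looked at as a group. Of 22 members mutated in that disease, 0 were called in CD200_AIA against CD200_NI, 0 in CD105_AIA against CD200_AIA and 1 (Rps20, higher) in CD105_AIA against CD200_NI, with medians of 0.39, 0.41 and 0.83 on the log2 scale. Of all genes, 0%, 4.79% and 5.57% were called higher in these comparisons, and the medians of all genes were -0.10, -0.05 and -0.24. Rpl5, which with Rpl11 carries the 5S rRNA and binds MDM2, averaged 1343 ± 375 CPM in CD105_AIA, 981 ± 222 CPM in CD200_AIA and 870 ± 213 CPM in CD200_NI. Rpl11 averaged 601 ± 161 CPM in CD105_AIA, 360 ± 87.5 CPM in CD200_AIA and 342 ± 135 CPM in CD200_NI. Neither gene passed the test in any comparison, with log2 changes of 0.63 (SE 0.28) and 0.81 (SE 0.32) in CD105_AIA against CD200_NI.

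Other genes of ribosome production and translation were counted from lists. In CD200_AIA against CD200_NI none of these lists held a called gene, where 0% of all genes were called. The shares of all genes called were 4.79% higher and 6.48% lower in CD105_AIA against CD200_AIA. They were 5.57% and 7.63% in CD105_AIA against CD200_NI. Of 35 ribosome biogenesis genes, 1 was called higher in CD105_AIA against CD200_AIA and 4 in CD105_AIA against CD200_NI, with 0 lower in both. The single gene was Dkc1, the pseudouridine synthase of rRNA, at 220 ± 46.2 CPM in CD105_AIA and 61.4 ± 39.3 CPM in CD200_AIA (log2 change 1.84, SE 0.52, edgeR adjusted p = 0.0353). The 4 were Nhp2 and Nop10, which bind the same guide RNAs as Dkc1, and the nucleolar proteins Ncl and Npm1. Nhp2 averaged 603 ± 223 CPM in CD105_AIA and 126 ± 45.8 CPM in CD200_NI (log2 change 2.26, SE 0.42), and Npm1 804 ± 254 CPM in CD105_AIA and 316 ± 90.2 CPM in CD200_NI (log2 change 1.35, SE 0.29). Of 20 genes of RNA polymerase I, which makes rRNA, 0 were higher and 2 lower in CD105_AIA against CD200_AIA. These were Znrd1, a subunit of the enzyme (log2 change -1.72, SE 0.40), and Taf1d, of its initiation factor (-1.46, SE 0.37). The median log2 change in CD200_AIA against CD200_NI, CD105_AIA against CD200_AIA and CD105_AIA against CD200_NI, in this order, was 0.47, 0.37 and 0.78 for the biogenesis genes and 0.47, 0.14 and 0.32 for the polymerase I genes, beside -0.10, -0.05 and -0.24 for all genes.

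Of 31 initiation factor genes, 2 were higher and 1 lower in CD105_AIA against CD200_AIA, where 4.79% and 6.48% of all genes were. In CD105_AIA against CD200_NI 8 were higher and 2 lower, where 5.57% and 7.63% of all genes were. Eif2s1, the alpha subunit of the factor that brings the initiator tRNA, averaged 329 ± 176 CPM in CD105_AIA, 119 ± 28.3 CPM in CD200_AIA and 89.6 ± 39.2 CPM in CD200_NI, with log2 changes of 1.47 (SE 0.37) and 1.88 (SE 0.41). Eif6, which keeps the large subunit from joining too early, had log2 changes of 1.05 (SE 0.28) and 1.13 (SE 0.31). The 5 further genes called higher against CD200_NI encode subunits of eIF3 (Eif3d, Eif3g, Eif3i, Eif3k and Eif3m). The remaining one higher was Eif2b1, of the exchange factor eIF2B (log2 change 2.63, SE 0.54), and Eif4a2, a helicase, was lower (-1.10, SE 0.34). Eif1a was lower in both comparisons, at -2.13 (SE 0.57) and -1.97 (SE 0.58). Of 10 elongation and termination genes, 2 were higher in each of these comparisons. Both times they were Eif5a, which relieves stalled ribosomes, at 1494 ± 697 CPM in CD105_AIA, 369 ± 146 CPM in CD200_AIA and 298 ± 263 CPM in CD200_NI, and Eef1d, a subunit of the exchange factor of eEF1A. In the same order of comparisons, the median log2 change was 0.10, 0.65 and 0.87 for initiation and 0.16, 0.72 and 0.94 for elongation and termination.

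Of 17 tested genes that control TOP mRNAs, only Eif4ebp1, a repressor of cap binding and mTOR target, was called, and only in CD105_AIA against CD200_NI (422 ± 155 CPM in CD105_AIA and 117 ± 18.4 CPM in CD200_NI, log2 change 1.86, SE 0.43). Of 18 genes of other ribosome-linked products, 1 was higher (Serbp1) and 1 lower (Gas5, a noncoding TOP transcript) in CD105_AIA against CD200_AIA, where 4.79% and 6.48% of all genes were. In CD105_AIA against CD200_NI 5 were higher, where 5.57% of all genes were. The 5 included Btf3, a subunit of the complex that binds nascent peptides at the ribosome, at 460 ± 139 CPM in CD105_AIA and 217 ± 69.2 CPM in CD200_NI (log2 change 1.08, SE 0.31), and Rpl36al, a copy of Rpl36a that the symbol rule leaves out. Of 12 import and chaperone genes in the table, 0 were higher and 1 lower (Tnpo1) in CD105_AIA against CD200_AIA, and 2 were higher (Nap1l1 and Bccip) and 1 lower (Tnpo1) in CD105_AIA against CD200_NI. The median log2 change in the same order was -0.17, 0.15 and 0.27 for the control of TOP mRNAs, 0.41, 0.18 and 0.83 for ribosome-linked products and -0.03, 0.82 and 0.62 for import and chaperones.

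Mitochondrial ribosomal protein genes, a list added after values had been seen, had higher medians than the cytosolic ones, a difference that was not tested. Of 78, 5 were higher and 0 lower in CD105_AIA against CD200_AIA, where 4.79% and 6.48% of all genes were. In CD105_AIA against CD200_NI 18 were higher and 1 lower (Mrps6), where 5.57% and 7.63% of all genes were. Their median log2 change was 0.52 in CD200_AIA against CD200_NI, 0.77 in CD105_AIA against CD200_AIA and 1.18 in CD105_AIA against CD200_NI, where the cytosolic members had 0.33, 0.44 and 0.80. Mrpl28 averaged 661 ± 268 CPM in CD105_AIA, 168 ± 49.4 CPM in CD200_AIA and 89.3 ± 29.0 CPM in CD200_NI, with log2 changes of 1.97 (SE 0.33) and 2.89 (SE 0.38). All calls of these lists are from the edgeR test over 15015 genes, and the lists themselves were not tested.

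**Figure D5:**
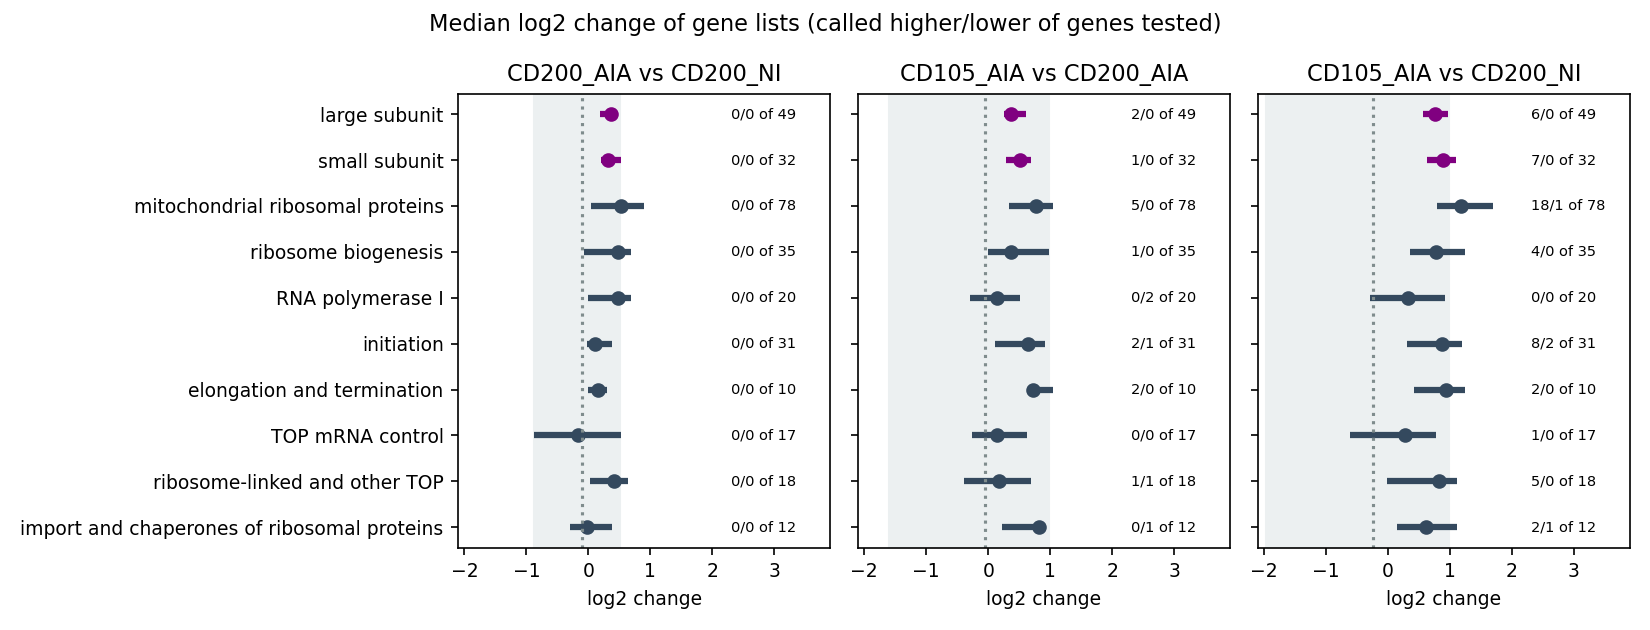
Median log2 change (points) and quartiles (bars) of ribosomal protein genes by subunit and of related gene lists in the 3 comparisons, with the numbers called higher and lower of those tested; the shaded band and dotted line are the quartiles and median of all genes. The cytosolic subunits show narrow bars above the median of all genes, and mitochondrial ribosomal proteins have the highest median in CD105_AIA against CD200_NI (1.18).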

How the data were processed

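RNA of 14 sorted samples in 3 groups was sequenced on a NextSeq 500 from Nextera XT libraries, per the labels. Per the submitters' processing notes, the tools were HISAT2, StringTie, cutadapt and edgeR and the builds mm10 and GRCm38. Versions, roles, strand setting and treatment of multimapping reads are not given in the sources used here. The deposited table holds whole-number counts per gene, made by the authors, for 47729 genes and 92 spike-ins. A further deposited table named as normalized repeats these raw counts for a part of the genes and was not used. Gene symbols and coordinates are those of GENCODE M21 for GRCm38, in which 419 genes had no match.

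Spike-in counts were left out of the library sizes. edgeR 4.0.16 (R 4.3.3) kept 15015 genes by filterByExpr with a minimum count of 10, scaled them by TMM and fitted all 14 libraries in 1 robust quasi-likelihood model by group (common biological coefficient of variation 1.28). The two-sided p-values were adjusted by Benjamini-Hochberg over all genes, with a threshold of 0.05. The standard error (SE) is the absolute log2 change over the square root of F. CPM values are counts per 1000000 gene counts after TMM. The test was checked on simulated counts with planted changes larger than those of the called members, so the check does not cover changes of their size. The libraries of a group were compared in 26 pairs, and none differed by as little as sampling noise, the lowest chi-square per degree of freedom being 85.1. Alternatives were RLE factors, spike-in library sizes, TMM without ribosomal protein genes, scaling without erythroid genes, no filter, a filter of 10 CPM in 4 libraries, DESeq2 1.42.0, limma 3.58.1 voom with sample weights, a non-robust fit, a fit restricted to the 2 groups of a comparison, leaving out the libraries over 80% spike-ins, leaving out each library, and, for sums, leaving out divergent copies or adding pseudogenes.

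The members, lists and alternatives were chosen with earlier results of these data known, and the mitochondrial list was added after values had been seen. Members named are, for each comparison, up to 8 called ones with the largest change in a direction, or the 5 with the smallest p where fewer than 5 were called. To these were added the divergent copies with their relatives, the stalk genes and Rpsa, the 4 highest and 4 lowest in CPM, and Rps19, Rpl5 and Rpl11. The remaining called members, and Rps29 as the third highest per kb, were named after their values were seen. Of each related list, up to 3 genes with the smallest p in a comparison are named, and the others named there were chosen after their values were seen. Of the members, 24 overlap another gene that is not a small RNA gene (20 on the opposite strand) and 32 hold a small RNA gene, so their counts are uncertain to that extent. The results of some genes named by these rules are not reported here.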

Additional observations from a re-analysis of the deposited data

Results flagged for a closer look

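In 13 results a single library lay far from the rest of its group. In CD105_AIA, Rpl5 was at 681 CPM in library 12, against 1425 to 1581 CPM in the other libraries, and Rpl39l was at 5.00 CPM, with a ratio to Rpl39 of 0.0122, in library 13, against 0 in the others. In CD200_AIA, library 6 was high in Rps19, at 4937 CPM against 1949 to 2756 CPM in the others, and in Rpl39l, at 96.7 CPM with a ratio to Rpl39 of 0.274, against at most 22.8 CPM and 0.0487. Library 5 was low in Rpl6 (455 CPM), Rplp2 (339 CPM), Rpl13a (416 CPM), Rps16 (429 CPM) and Rpl11 (205 CPM). Libraries 5 and 6 are among the 3 with over 80% spike-ins. In CD200_NI, Rplp0 was at 853 CPM in library 1, against 1713 to 1854 CPM, and Rps27l at 155 CPM in library 2, against 492 to 509 CPM. Chance marks about 1 in 20 groups. Over all 81 tested members and 3 groups, 19 of 243 were marked in this way, where chance alone would give 12.2, and of these 8 were low in library 5 and 6 low in library 12.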

How the results depend on the processing

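No paired analysis was made. The library numbers 1 to 14 are each used once, and the labels do not say whether CD105_AIA and CD200_AIA came from the same mice. With spike-in library sizes 0 members were called in any comparison. Of all 15015 genes, 0 were called in CD200_AIA against CD200_NI, 545 in CD105_AIA against CD200_AIA and 278 in CD105_AIA against CD200_NI. The median log2 change of large and small subunit genes was then 1.72 and 1.82 in CD105_AIA against CD200_AIA and 2.17 and 2.33 in CD105_AIA against CD200_NI. In CD105_AIA against CD200_AIA, the 3 higher calls became 6 with TMM without ribosomal protein genes, 8 with DESeq2 and 21 with limma voom, and the last 2 tools each called 1 member lower. In CD105_AIA against CD200_NI, the 13 became 8 without a filter and 52, with 1 lower, in limma voom. Over all genes, TMM without ribosomal protein genes gave 1716 calls in CD105_AIA against CD200_AIA, beside 1692 in the main fit. The fit without a filter gave 1357 of 25864 in CD105_AIA against CD200_NI, beside 1982 of 15015. The cause of these differences was not tested.

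Leaving out each library gave 0 to 7 higher and 0 to 1 lower calls in CD105_AIA against CD200_AIA, 4 to 28 and 0 to 1 in CD105_AIA against CD200_NI, and 0 and 0 in CD200_AIA against CD200_NI. Calls over all genes in either direction ran from 1090 to 1794, 1308 to 2394 and 0 to 2 in the same order. The median log2 change of large subunit genes ranged from 0.25 to 0.57, 0.61 to 1.02 and 0.20 to 0.55 in these comparisons, and that of small subunit genes from 0.40 to 0.68, 0.77 to 1.17 and 0.17 to 0.58. The mean large to small ratio ranged from 1.25 to 1.27 in CD105_AIA, 1.30 to 1.31 in CD200_AIA and 1.31 to 1.36 in CD200_NI, and the mean share of gene counts from 8.06 to 9.44%, 6.82 to 8.08% and 4.62 to 5.70%.

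Small changes turned direction. In CD200_AIA against CD200_NI, the log2 changes of Rpl7l1, Rps4x, Rpl13a and Rpl27a were 0.18, 0.10, 0.05 and 0.16 with spike-in library sizes and 0.07, 0.16, 0.09 and 0.25 in limma voom. Without the libraries over 80% spike-ins, Rpl7l1 was at 0.29 and Rpl27a at 0.05. Rps4x, Rpl13a and Rpl27a were at 0.05, 0.09 and 0.09 without library 3, at 0.22, 0.20 and 0.33 without library 4, and at 0.06, 0.14 and 0.18 without library 5, and Rps4x and Rpl27a at 0.05 and 0.04 without library 6. The lowest values of Rps4x, Rpl13a and Rpl27a on leaving out a library were -0.26, -0.25 and -0.25, without library 2. In CD105_AIA against CD200_AIA, spike-in library sizes gave 1.03 for Rps27, 1.25 for Rps19 and 1.13 for Rpl22l1. In CD105_AIA against CD200_NI, Rpl22l1 was at 1.12 with spike-in library sizes and 0.11 without library 3. Its lowest value on leaving out a library was -0.34, without library 10, and its lowest over all alternatives was -0.48, in DESeq2. Of the values of single genes under alternatives, 540 kept their direction and side of the threshold, 94 lost a call, 15 gained one and 26 turned direction. How far reads were split between members and pseudogene copies was not tested.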
